A study of Mus musculus with 4 samples.

Results

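The genes described here are 40 genes of the ATF4 pathway and the unfolded protein response, taken as the genes whose names in the scanner files are on a list of known ATF4 targets, ER chaperones and ER sensors. They were read by 49 probes, out of 55122 probes and 35923 gene names with a usable value on every array. They fall into 13 amino acid genes, 14 stress regulators, 10 ER chaperones and 3 genes grouped as ER sensors. This last group holds the sensors Atf6 and Ern1, and also Xbp1, a transcription factor whose mRNA is spliced by the product of Ern1. The first group of genes and most of the second are targets of ATF4, and the chaperones are targets of ATF6 and XBP1, so the groups are given apart.

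RNA came from the mouse embryonic stem (ES) cell line E14Tg2A (strain 129/Ola), with 4 groups and 1 array per group. The ES group was day 0 culture in medium with serum and LIF. The ELA group was epiblast-like aggregates, floating aggregates kept until day 2 in a chemically defined minimal medium, which holds no serum or LIF. That medium has a different base from the ES medium, and a smaller supplement of non-essential amino acids was added to it. The AZA and CHQ groups were such aggregates formed with 50 nM 5-azacytidine, an inhibitor of DNA methyltransferases, or with 100 µM 5-carboxy-8-hydroxyquinoline, an inhibitor of lysine demethylases. Each array held RNA pooled from 3 experiments of this 1 cell line, so there was no replicate array and no test between groups. Precision is limited by having 4 arrays in all.

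ATF4 is a transcription factor whose mRNA is translated when kinases of the integrated stress response phosphorylate the initiation factor eIF2. It raises genes for amino acid import, amino acid synthesis and tRNA charging, together with regulators such as CHOP (Ddit3). The unfolded protein response starts from sensors in the ER membrane: PERK leads to ATF4, ATF6 is cut to release a transcription factor, and IRE1 (Ern1) splices the XBP1 mRNA, after which ATF6 and XBP1 raise chaperones, folding enzymes and components of ER-associated degradation. In ES cells the transporters and serine synthesis genes of the ATF4 set are also used in normal growth.

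The upstream sequences show the elements by which these arms are usually told apart. Promoters were available for 35 of the 40 genes in RefSeq sequence (build GRCm38.p6), and the 250 bases before each start were searched on both strands. The amino acid response element bound by ATF4 with C/EBP factors was searched by its core, TGATGNAA. The ER stress element was searched as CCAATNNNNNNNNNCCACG, and its second form as ATTGGNCCACG. In the members, no match of the ER stress element or its second form overlapped one of the core. The sequences below are shown because they carry the match in the genes with the clearest values in these arrays or in the best known members of the chaperone group. Capitals mark the fixed bases of the match, and its free bases are in lower case.
Asns, chr6:7693210-7693277, minus strand: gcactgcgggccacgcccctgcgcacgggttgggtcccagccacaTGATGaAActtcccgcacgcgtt
Atf3, chr1:191183391-191183488, minus strand: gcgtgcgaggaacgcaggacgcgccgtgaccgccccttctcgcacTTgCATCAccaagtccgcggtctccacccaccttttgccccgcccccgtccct
Chac1, chr2:119351004-119351101, plus strand: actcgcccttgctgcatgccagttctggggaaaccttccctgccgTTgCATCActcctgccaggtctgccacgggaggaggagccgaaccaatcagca
Nupr1, chr7:126625528-126625625, minus strand: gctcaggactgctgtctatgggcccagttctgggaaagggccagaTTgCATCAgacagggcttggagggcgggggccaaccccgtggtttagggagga
Vldlr, chr19:27216775-27216872, plus strand: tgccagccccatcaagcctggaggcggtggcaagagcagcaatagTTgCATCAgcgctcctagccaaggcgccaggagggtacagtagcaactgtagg
Hspa5, chr2:34771980-34772088, plus strand: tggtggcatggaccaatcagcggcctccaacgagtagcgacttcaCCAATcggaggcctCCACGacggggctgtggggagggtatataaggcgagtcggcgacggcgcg
Hsp90b1, chr10:86705488-86705694, minus strand: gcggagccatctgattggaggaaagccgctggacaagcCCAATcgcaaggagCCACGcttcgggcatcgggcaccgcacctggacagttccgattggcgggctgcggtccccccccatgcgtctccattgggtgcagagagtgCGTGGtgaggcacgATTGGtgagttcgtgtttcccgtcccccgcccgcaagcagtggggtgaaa
Calr, chr8:84847030-84847138, minus strand: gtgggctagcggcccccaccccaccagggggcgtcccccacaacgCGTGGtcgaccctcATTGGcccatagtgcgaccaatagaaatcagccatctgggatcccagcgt
Herpud1, chr8:94386272-94386428, plus strand: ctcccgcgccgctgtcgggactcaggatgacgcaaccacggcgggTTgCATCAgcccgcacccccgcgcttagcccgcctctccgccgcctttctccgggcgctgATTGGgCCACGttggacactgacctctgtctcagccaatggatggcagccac

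The core TGATGNAA was present before the start of 4 of 10 amino acid genes with a promoter (Aars, Asns, Gars and Slc7a11), 4 of 13 stress regulators (Atf3, Chac1, Nupr1 and Vldlr) and 1 of 10 chaperones (Herpud1), beside 3.91% of 27025 genes in the table, a gene being counted when any of its starts had a match. The ER stress element was present in 5 of 10 chaperones (Calr, Dnajc3, Hsp90b1, Hspa5 and Pdia6), in no promoter of the other 3 groups, and in 0.13% of all genes. The second form was found in Herpud1 alone among the members and in 0.037% of all genes. Herpud1, a membrane protein of ER-associated degradation, was the one member with a match of both kinds, 112 and 52 bases before the start. Atf6, Eif4ebp1, Slc7a3, Slc7a5 and Wars were not in the promoter table. A match of letters is a description of the sequence, and the window leaves out elements further away or within the transcript.

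**Figure D1:**
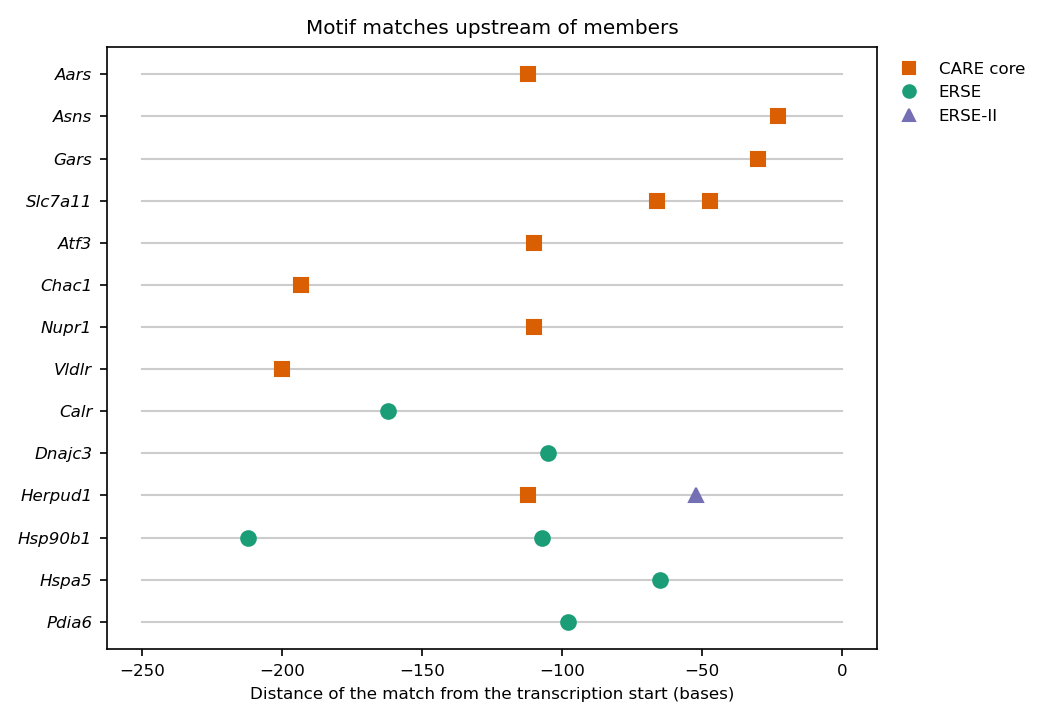
Position of motif matches in the 250 bases before the transcription start of the 14 members that hold one; the x axis is the distance of the first base of the match from the start in bases, and symbols mark the core of the amino acid response element (CARE core), the ER stress element (ERSE) and its second form (ERSE-II). ERSE matches lie in chaperone genes, between 212 bases (Hsp90b1) and 65 bases (Hspa5) before the start.

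Levels below are log2 intensities after background correction and quantile normalisation, and differences are log2 differences between 2 arrays. A gene was called changed when the difference was at least 1, its mean level over the pair was 7.5 or more, and Feature Extraction marked 1 or both spots as well above background. Repeated spots of a probe on 1 array differed by a pooled SD of 0.15, which covers spotting and reading and no biological variation. In bulk RNA, fewer cells of a type and less RNA per cell cannot be told apart. Of the 40 members, 39 were well above background on all 4 arrays. The exception was Slc7a11, the cystine transporter, which was not well above background on any array (5.77 to 6.11), so no difference is given for it.

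ES and ELA were hybridised on slide 1, and AZA and CHQ on slide 2. Slide and treatment therefore cannot be told apart when a treated array is set against ELA, whereas ELA against ES and CHQ against AZA lie within a slide. AZA and CHQ were both set against the same ELA array. Local background had medians of 59 (ES) and 77 (ELA) intensity units on slide 1, and 14 (AZA) and 13 (CHQ) on slide 2. Pluripotency markers (6 of 6) were well above background on every array, but their levels differed. Zfp42 stood at 15.78 in ES, 12.00 in ELA, 15.76 in AZA and 15.08 in CHQ, and Nanog at 15.03, 12.54, 15.43 and 12.55 on its brighter probe. The second Nanog probe gave 9.44, 9.68, 8.13 and 8.66. The brighter Nanog probe thus differed from ELA by 0.01 with CHQ. The other 4 markers differed from ELA by less than 1 with both drugs. Pou5f1 gave -0.41 and -0.89, Sox2 0.99 and 0.64, Utf1 0.30 and -0.09, and Dppa4 0.42 and 0.00. The summed intensity of the 6 markers was 219739, 124527, 235723 and 143569 in the same order, and that of 4 markers of the primed state 240668, 494912, 208165 and 292188. Of these primed markers, Dnmt3b had the highest level on every array. Against ELA, 3 were called lower with AZA and 2 with CHQ, while Otx2 gave 0.34 and -0.30, and Pou3f1 gave 0.34 with CHQ. Both tested trophoblast markers (Krt8 and Krt18) and 2 of 3 neural markers (Nes and Zic1) were called lower with each drug. Hand1, a trophoblast marker below the level filter, gave 1.14 with AZA and 1.45 with CHQ against ELA. The trophoblast markers Cdx2 and Elf5, each well above background on 1 array only, were not tested either. Cdx2 gave -0.26 and -0.23 against ELA, and Elf5 0.43 and 0.63. The second Zic1 probe gave -0.01 and 1.75. Of 4 tested fibroblast markers 2 were lower and 1 higher with AZA and 3 lower with CHQ. Over all tested genes, 11.5% (AZA) and 11.9% (CHQ) were called lower. The part of these markers in the member differences was not tested.

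Probes toward the 5' end of a gene tended to be lower on slide 2 than probes toward its 3' end. Over 3766 genes with such a pair of probes, well above background on all arrays and at least 300 bases apart on the genome, the 5' probe's difference minus that of the 3' probe had a median of -0.20 in AZA minus ELA and -0.32 in CHQ minus ELA. Within slides the medians were -0.04 (ELA minus ES) and -0.06 (CHQ minus AZA). The 5' minus 3' value was below 0 for 62.3% of these genes in AZA minus ELA and 69.1% in CHQ minus ELA. It was below 0 for all 6 members with such a pair in both treated comparisons, with medians of -1.03 and -1.01. These members were Atf4, Dnajb9, Psat1, Psph, Slc7a5 and Wars. The part of this in the differences of members with 1 probe was not tested.

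**Figure D2:**
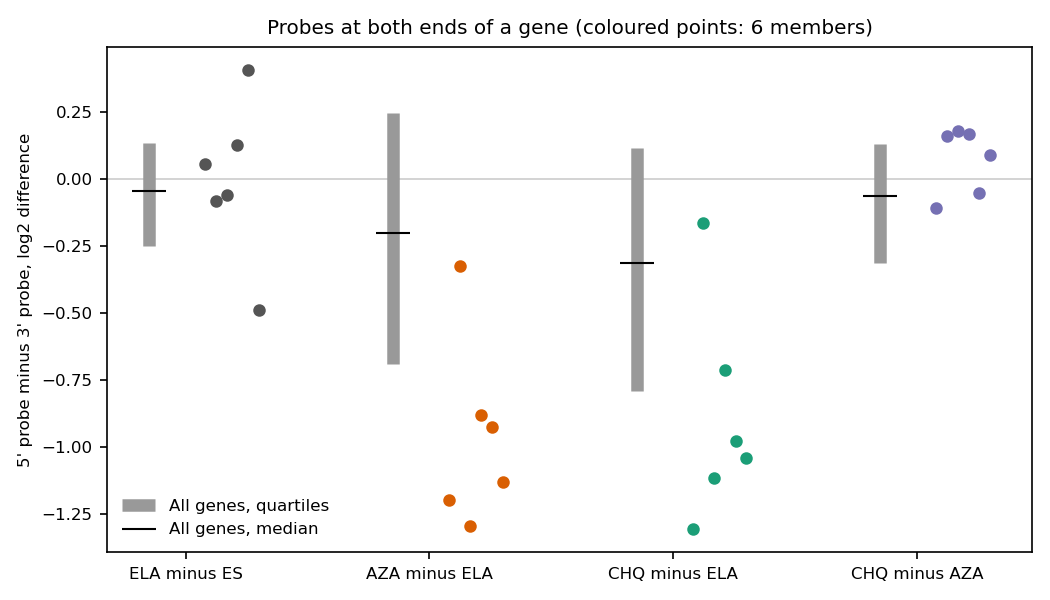
Difference of the 5' probe minus difference of the 3' probe of the same gene (y axis, log2) in 4 comparisons; grey bars are the quartiles and black ticks the medians over 3766 genes, and coloured points are 6 members. The members lie between -1.31 and -0.17 when CHQ is set against ELA.

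ELA against ES asks how these genes differ between day 2 aggregates and ES cells kept in serum and LIF. Of 39 members, 3 were called higher and 1 lower, or 10.3%, beside 10.1% of 18931 tested genes (4.53% higher and 5.52% lower). The called rises were Vldlr, Ddit3 and Chac1, all stress regulators, and the called fall was Slc7a1, an amino acid transporter. The stress regulators had a median difference of 0.51, with 12 of 14 above 0, against a median of -0.01 over all tested genes. This direction depends on the scaling: with spike-in scaling their median was -0.19, where that of all tested genes was -0.67, and 1 member was called higher and 7 lower.

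Vldlr, a lipoprotein receptor induced under ER stress, stood at 7.85 in ES, 10.49 in ELA, 10.70 in AZA and 11.88 in CHQ. It was lowest in ES and 6.25-fold higher in ELA, and highest in CHQ. Its second probe, well above background on 2 arrays only, gave 6.23, 6.41, 6.77 and 7.05 in the same order.

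Ddit3, which encodes CHOP and acts in prolonged stress, stood at 8.27 in ES, 9.87 in ELA, 10.39 in AZA and 10.57 in CHQ. Chac1, which breaks down glutathione and is a target of ATF4, stood at 10.10, 11.55, 11.56 and 11.77. Both were low in ES alone, by 1.59 and 1.46 against ELA, and the aggregates with a drug differed from ELA by less than 1. With spike-in scaling the differences from ES were 0.94 for Ddit3 and 0.80 for Chac1. Stc2, a secreted glycoprotein of the stress response, was just below the threshold at 0.98. It passed with 75th percentile scaling (1.22), without background correction (1.02) and in the deposited table (1.02), and was 0.34 with spike-in scaling.

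Amino acid genes had a median of -0.18 in ELA minus ES, with 7 of 12 below 0. Slc7a1, which imports arginine and lysine, stood at 12.83 in ES, 11.78 in ELA, 14.06 in AZA and 13.73 in CHQ, so it was lowest in ELA and highest on the treated arrays. Asns, asparagine synthetase, gave a difference of -0.67 from ES to ELA, and Psph, the last enzyme of serine synthesis, gave -0.59. The 4 tRNA synthetases lay between 0.10 and 0.28. With spike-in scaling, Asns (-1.51), Psph (-1.40), Slc38a2 (-1.30), Atf6 (-1.23), Eif4ebp1 (-1.10) and Psat1 (-1.05) also passed the threshold in ELA minus ES. ER chaperones had a median of 0.04 and none was called, with values from -0.11 (Pdia4) to 0.41 (Herpud1).

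**Figure D3:**
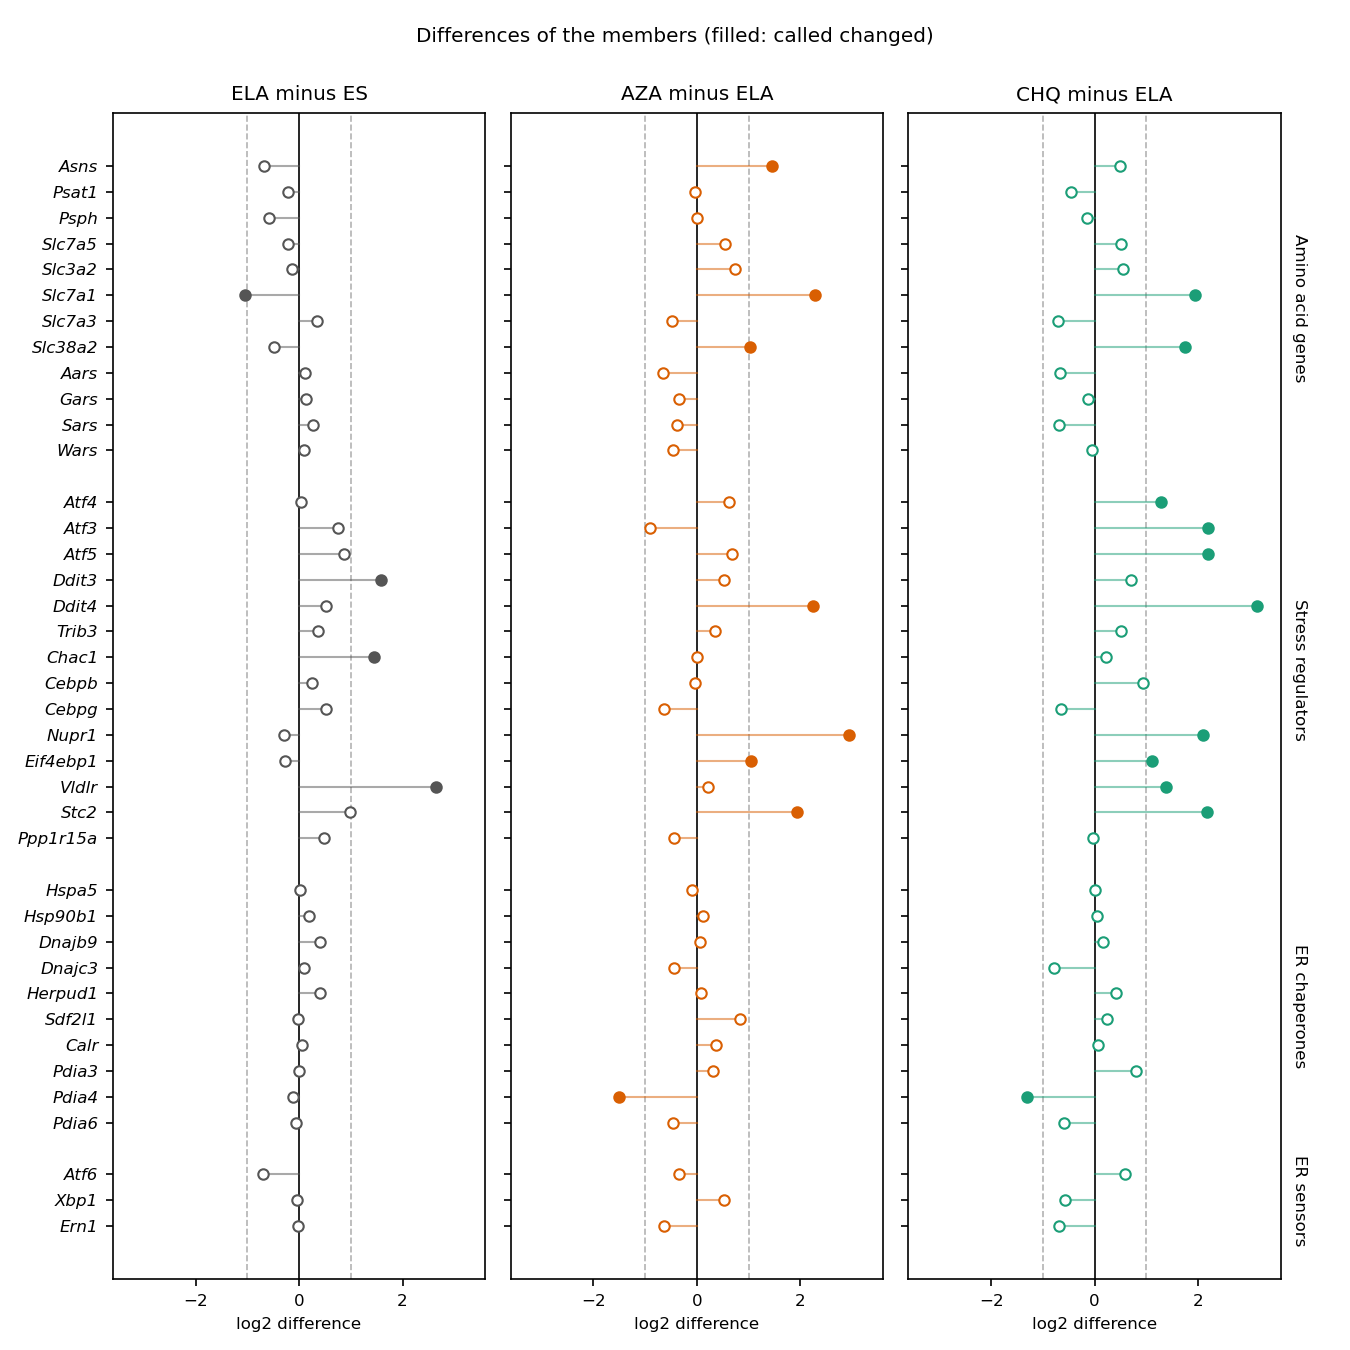
Log2 difference (x axis) of the 39 detected members in ELA minus ES, AZA minus ELA and CHQ minus ELA, from single arrays; filled points were called changed, dashed lines mark a difference of 1, and rows are grouped by role. In CHQ minus ELA, 8 of 14 stress regulators are filled, beside 26.8% of all tested genes, and in AZA minus ELA 4 of 14, beside 25.7%; the only filled chaperone is Pdia4, on the lower side.

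With AZA, 7 members were called higher and 1 lower than in ELA (20.5% of 39), beside 25.7% of 19125 tested genes, of which 14.2% were higher and 11.5% lower. The rises were Nupr1, Ddit4, Stc2 and Eif4ebp1 among the stress regulators and Slc7a1, Asns and Slc38a2 among the amino acid genes. With 75th percentile scaling and in the deposited table, 5 members were higher and 2 lower. Medians were 0.44 for stress regulators, -0.01 for amino acid genes and 0.08 for chaperones, against -0.07 over all tested genes.

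With CHQ, 10 members were called higher and 1 lower than in ELA (28.2% of 39), beside 26.8% of 19144 tested genes, of which 14.8% were higher and 11.9% lower. The stress regulators held 8 of the rises (Ddit4, Atf3, Atf5, Stc2, Nupr1, Vldlr, Atf4 and Eif4ebp1), or 57.1% of the group, and had a median of 1.19. Slc7a1 and Slc38a2 were the other rises, and the amino acid genes had a median of -0.09. Chaperones had a median of 0.06, and all tested genes had -0.08. With 75th percentile scaling and with spike-in scaling, 8 members were higher and 5 lower, and the calls over all genes turned from 2836 higher and 2287 lower to 2272 and 3170 and to 2178 and 3694. Called higher with both drugs were 6 members (Slc7a1, Slc38a2, Ddit4, Nupr1, Eif4ebp1 and Stc2), and Pdia4 was called lower with both. Over 18666 genes tested in both comparisons, which share the ELA array and the slide, 9.89% were called higher with both drugs and 7.79% lower.

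**Figure D4:**
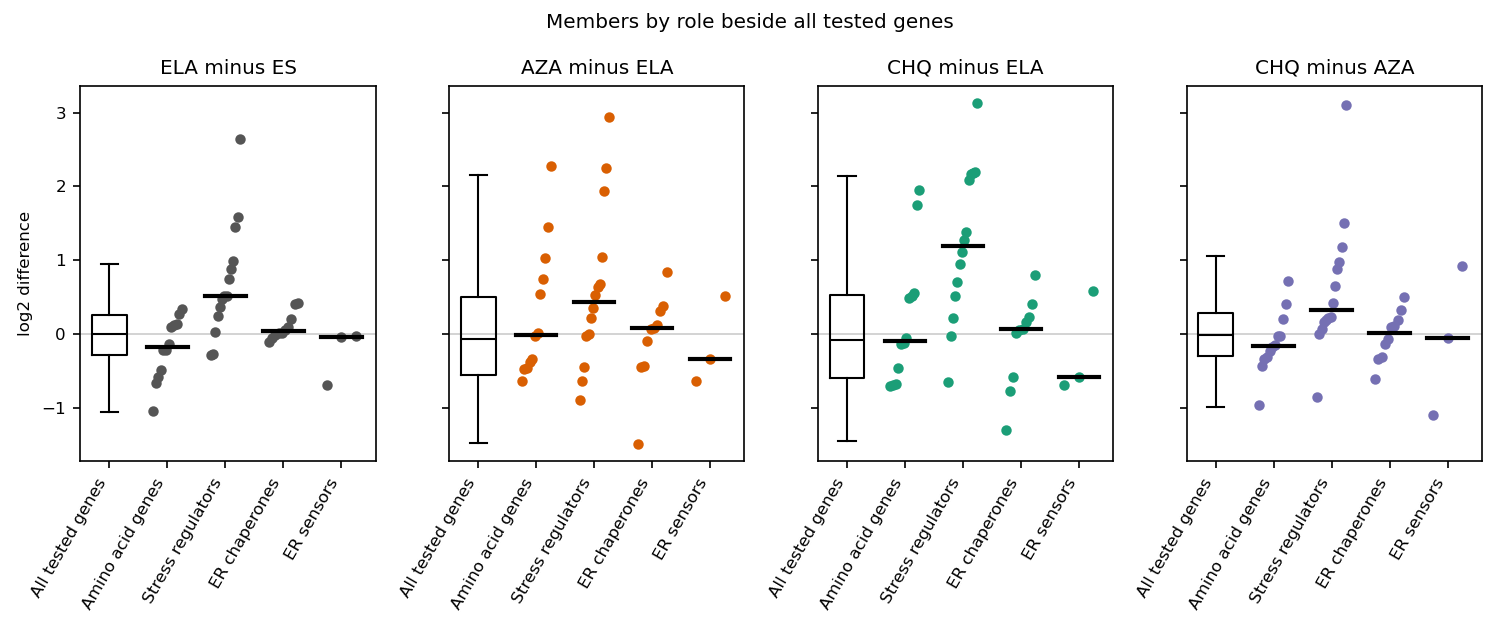
Log2 differences (y axis) of members by role in 4 comparisons, beside all tested genes; points are genes, thick lines are group medians, and the box shows the median and quartiles of all tested genes with whiskers at the 5th and 95th percentiles. Stress regulators have a median of 1.19 in CHQ minus ELA and chaperones one of 0.06.

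Among the genes of the ATF factors, Atf3 and Atf5 were called higher in CHQ than in AZA and Atf4 was not. The brighter Atf4 probe (mm9, chr15:80087902-80087961, plus strand) stood at 16.22 in ES, 16.25 in ELA, 16.88 in AZA and 17.53 in CHQ, a difference of 1.28 for CHQ minus ELA. The second probe, 5' of it at chr15:80086639-80086698, gave 11.49, 11.58, 11.01 and 11.55, or -0.03 for CHQ minus ELA, so the rise was present in 1 of 2 probes. The CHQ difference of the brighter probe was 0.54 with 75th percentile scaling and 0.49 with spike-in scaling.

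Atf5, a relative of ATF4 that is also translated under stress, stood at 12.08 in ES, 12.96 in ELA, 13.64 in AZA and 15.14 in CHQ. It was highest in CHQ, 4.54-fold over ELA and 2.84-fold over AZA. Atf3, an early stress-induced repressor, stood at 8.62, 9.37, 8.47 and 11.57. CHQ was alone on the high side, 8.58-fold over AZA on the same slide, while AZA was near ES.

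Cebpb, a C/EBP factor that can pair with ATF4, gave 11.00, 11.25, 11.21 and 12.19, also highest in CHQ but short of the threshold at 0.98 over AZA. Cebpg, its smaller relative, lay between 9.61 and 10.25. Trib3, a pseudokinase that restrains ATF4, lay between 12.37 and 13.25, and Ppp1r15a, which directs the phosphatase that reverses eIF2 phosphorylation, between 13.17 and 13.65. None of these was called in any comparison.

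Ddit4, Nupr1 and Stc2 were higher by more than 1 on both treated arrays than on both control arrays. Ddit4 (probe at mm9 chr10:59412486-59412545, minus strand), an inhibitor of mTORC1 induced by ATF4 and also by low oxygen, stood at 14.69 in ES, 15.20 in ELA, 17.45 in AZA and 18.33 in CHQ. Nupr1 (chr7:133766978-133767037, minus strand), a small stress-induced nuclear protein, stood at 10.20, 9.92, 12.86 and 12.01. Stc2 stood at 8.53, 9.52, 11.46 and 11.69. In all 3 the lower treated array was more than 1 above the higher control array, by 2.25, 1.81 and 1.94, and so their treated and control arrays did not overlap. By that rule of a gap of at least 1, chosen after values were seen, 5.51% of 19131 tested genes were higher on both treated arrays and 3.38% lower. Of 39 members, 3 were higher and 1 lower. Other members were higher on both treated arrays by smaller gaps, among them Slc7a1 (0.90), Eif4ebp1 (0.77) and Atf5 (0.68). Some were lower on both by smaller gaps, such as Ern1 (-0.64) and Aars (-0.53). Eif4ebp1, the translation repressor 4E-BP1, stood at 15.89, 15.61, 16.65 and 16.72, and its rises over ELA of 1.04 and 1.11 were 0.46 and 0.32 with 75th percentile scaling.

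**Figure D5:**
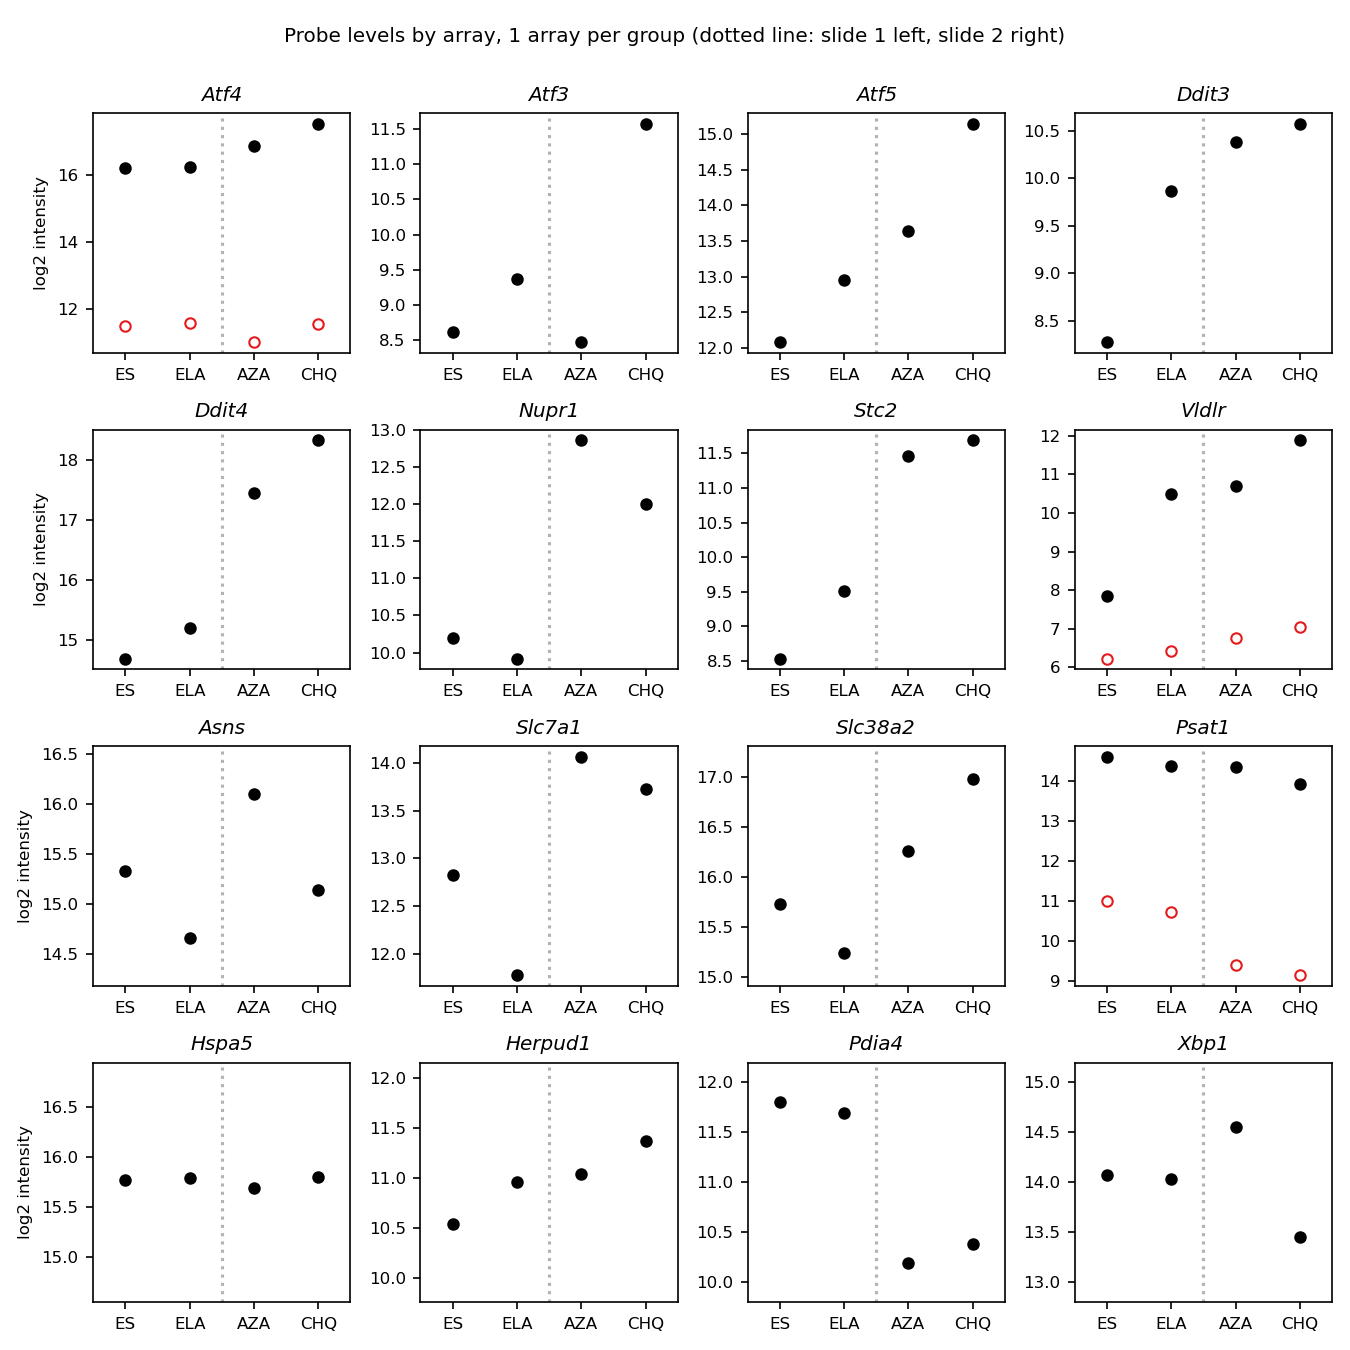
Log2 intensity (y axis, its own range in each panel) of 16 members on the 4 arrays (x axis), 1 point per probe and array, with a second probe as an open red point; the dotted line parts slide 1 from slide 2. Ddit4, Nupr1 and Stc2 lie more than 1 higher on both treated arrays than on both controls, and some other panels show smaller gaps in that direction. Atf3 stands out in CHQ alone, and Hspa5 stays between 15.69 and 15.80 after quantile normalisation.

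Among transporters, Slc38a2, which imports small neutral amino acids, stood at 15.73 in ES, 15.24 in ELA, 16.27 in AZA and 16.99 in CHQ. It was lowest in ELA and highest in CHQ. Its AZA difference of 1.02 was 0.68 with 75th percentile scaling. Slc3a2, the heavy chain shared by several transporters, gave 14.91, 14.78, 15.51 and 15.33, and Slc7a5, its leucine-transporting partner, gave 11.02, 10.80, 11.34 and 11.32, neither of them called. The second Slc7a5 probe, well above background on all arrays, gave 8.99, 9.18, 8.79 and 8.71, with differences from ELA of -0.39 and -0.47 where the brighter probe had 0.54 and 0.51. Slc7a3, another cationic transporter, was lower with both drugs, at 15.93 in ELA, 15.46 in AZA and 15.23 in CHQ. Its CHQ difference of -0.70 did not reach the threshold, but was -1.26 both with 75th percentile scaling and with spike-in scaling.

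Asns stood at 15.33 in ES, 14.66 in ELA, 16.10 in AZA and 15.14 in CHQ, so that only AZA passed the rule, by 1.44. Psat1, in serine synthesis, had differences of -0.03 and -0.46 from ELA on its brighter probe and -1.32 and -1.57 on its 5' probe. The probes of Psph disagreed likewise, with 0.01 and -0.14 on the brighter one and -0.87 and -0.85 on the 5' one. On their brighter probes Aars, Gars, Sars and Wars, which charge alanine, glycine, serine and tryptophan tRNAs, were all below ELA with both drugs, between -0.69 and -0.06, and none was called. The 5' probe of Wars stood at 11.69 in ES, 11.30 in ELA, 9.70 in AZA and 10.20 in CHQ, with differences from ELA of -1.60 and -1.10, past the threshold. The second Aars probe, well above background on 1 array only, lay between 5.97 and 6.80. In CHQ minus ELA, Aars and Sars passed the threshold with 75th percentile scaling (-1.06 and -1.01) and with spike-in scaling (-1.06 and -1.09).

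The genes with the core element before the start therefore included both called members (Asns with AZA, Nupr1 with both drugs, Atf3 and Vldlr with CHQ) and members with small differences (Aars, Gars and, against ELA, Chac1).

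Among 10 ER chaperones, Pdia4 was the only called gene, lower with both drugs, or 10.0% of the group beside 25.7% (AZA) and 26.8% (CHQ) of all tested genes. Hspa5, which encodes BiP, the main ER chaperone and the usual readout of ATF6, stood at 15.77 in ES, 15.79 in ELA, 15.69 in AZA and 15.80 in CHQ. Hsp90b1, the ER form of HSP90, stood at 15.35, 15.54, 15.67 and 15.59. After quantile normalisation Hspa5 spanned 0.11 over the 4 arrays and Hsp90b1 0.32. With spike-in scaling they gave -0.79 and -0.58 in ELA minus ES, where all tested genes had a median of -0.67. With 75th percentile scaling they gave -0.47 and -0.33 in AZA minus ELA, where that median was -0.20.

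Herpud1 stood at 10.54, 10.96, 11.04 and 11.37, and Dnajb9, a co-chaperone of BiP raised by XBP1, at 10.13, 10.53, 10.60 and 10.70. The second Dnajb9 probe gave 7.51, 7.82, 7.57 and 7.82. On the brighter probes both were lowest in ES and no difference was called. Calr, a lectin chaperone, lay between 14.33 and 14.76, and Sdf2l1, a BiP cofactor, between 11.04 and 11.89 with its highest value in AZA. Dnajc3, an inhibitor of eIF2 kinases and BiP cofactor, was lowest in CHQ at 10.37, against 11.15 in ELA.

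The protein disulfide isomerases, which form and exchange disulfide bonds, had differences on both sides of 0. Pdia4 (mm9, chr6:47746516-47746575, minus strand) stood at 11.80 in ES, 11.69 in ELA, 10.20 in AZA and 10.38 in CHQ, lower on both treated arrays by 1.50 and 1.31 than in ELA. Pdia3 gave 13.04, 13.05, 13.36 and 13.85, highest in CHQ. Pdia6 gave 16.78, 16.73, 16.28 and 16.14, and its second probe gave 11.42, 11.65, 11.07 and 10.59. The difference in CHQ minus ELA was -0.59 on the brighter probe and -1.06 on the second, and that of the brighter probe was -1.29 with 75th percentile scaling and -1.37 with spike-in scaling.

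In the ER sensor group, Xbp1, which is not itself a sensor, stood at 14.07 in ES, 14.02 in ELA, 14.54 in AZA and 13.44 in CHQ. CHQ was thus lower than AZA by 1.10, and the drugs lay on opposite sides of ELA. Atf6 stood at 8.75, 8.05, 7.72 and 8.64, and Ern1, which encodes IRE1, at 8.84, 8.81, 8.17 and 8.12. The array does not tell spliced from unspliced Xbp1, cut from uncut ATF6 or the phosphorylation of eIF2. It therefore reads the transcripts of these genes and not the activity of their proteins.

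Within slide 2, CHQ against AZA gave 3 members called higher (Atf3, Atf5 and Vldlr) and 1 lower (Xbp1), or 10.3% of 39, beside 10.5% of 19135 tested genes (5.63% higher and 4.82% lower). With spike-in scaling, 3 members were higher and 2 lower, and the calls over all genes turned from 1078 higher and 922 lower to 771 and 1153. Stress regulators had a median of 0.32, with 12 of 14 above 0, amino acid genes -0.16 and chaperones 0.01, against -0.02 over all tested genes. Nupr1 and Asns were lower in CHQ than in AZA, by 0.85 and 0.96, without being called. The Asns difference passed the threshold with 75th percentile scaling (-1.08) and with spike-in scaling (-1.21). Of 6 tested primitive endoderm markers, 2 were called higher in CHQ than in AZA and 0 lower, with a median of 0.25. Gata6 stood at 8.06 in AZA and 9.89 in CHQ, and the brighter Sox17 probe at 7.76 and 9.51, and these probes were not well above background in ES or ELA. Lama1 gave -0.47 in this comparison, Sparc -0.16 and Gata4 0.03, and Dab2 and Foxa2 were called lower than in ELA with both drugs. The summed intensity of the 10 markers was 127070 in ES, 78346 in ELA, 100219 in AZA and 90668 in CHQ, most of it from Sparc. Their part in the member differences was not tested.

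Among other genes of the pathway, no eIF2 kinase, eIF2 subunit or phosphatase gene was called in any comparison (9 genes), and Eif2ak3, which encodes PERK, had its largest value of 11.82 in CHQ against 10.94 in ELA. Of 15 tested further amino acid genes, 5 were called higher and 2 lower with each drug, or 46.7% beside 25.7% (AZA) and 26.8% (CHQ) of all tested genes. Gdf15, a secreted stress hormone and ATF4 target, stood at 9.07 in ES, 8.50 in ELA, 11.75 in AZA and 11.88 in CHQ. Cth, of cysteine synthesis, fell by 1.42 from ES to ELA and was higher than in ELA by 1.97 with AZA and 1.85 with CHQ. Phgdh, the first enzyme of serine synthesis, gave -1.52 with AZA and -2.20 with CHQ, and its second probe gave -1.78 and -2.52. Slc6a9, a glycine transporter, was higher in ELA than in ES by 1.82 and higher in CHQ than in AZA by 1.26.

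Of 16 further tRNA synthetases, 18.8% were called with each drug, beside 25.7% (AZA) and 26.8% (CHQ) of all tested genes. Cars was called higher with AZA at 1.15, while Hars and Rars were called lower with both drugs and Vars with CHQ at -1.72. Of 22 further ER genes, 18.2% were called with AZA and 13.6% with CHQ, below the shares over all tested genes. Ero1l, an oxidase that charges disulfide isomerases, was higher by 2.15 with AZA and 2.14 with CHQ. Edem1, which marks misfolded glycoproteins for degradation, was higher by 1.14 and 1.89. Creb3l2, an ER-anchored transcription factor, was called higher with AZA at 1.60 and lower in CHQ than in AZA at -1.58, and Derl3, of ER-associated degradation, was lower in CHQ than in AZA at -1.45. Hyou1, an ER chaperone, was called lower with CHQ at -1.13. A list of 10 heat shock genes, of the cytosol apart from the mitochondrial Hspd1 and Hspe1, had medians of 0.00 with AZA and -0.11 with CHQ. Hspb1, a small heat shock protein, was called higher with both drugs (2.97 and 2.40) and fell by 2.09 from ES to ELA, and Hspa1a, an inducible HSP70, was called higher with CHQ at 1.43.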

How the data were processed

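Cy3-labelled cRNA was hybridised to 1-colour Agilent mouse arrays. Per the file headers, the authors quantified the scans in Feature Extraction (release 10.7.3.1), while the submitters' processing notes name version 9.1. The deposited scanner files hold spot and local background intensity with quality flags, not normalised between arrays. The deposited value table holds log2 values normalised by the authors with limma, and was used as an alternative.

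Mean spot intensity was corrected with normexp (offset 50) on the median local background, and gene spots were quantile-normalised over the 4 arrays with limma 3.58.1 in R 4.3.3. Control spots and spots with an outlier flag were left out, 0 spots were saturated, and log2 values of repeated spots were averaged per probe. This left out 559 of 55681 probes. The share of spots well above background was 55.1% to 69.2%. The probe with the highest mean stood for a gene, and for members the other probes are given where they differed in sign or by at least 1. Gene names are those of the files.

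The members, lists and tests were chosen with earlier results of these data known. All members are named, and of the other lists at most 3 called genes with the largest change per list and comparison, besides marker genes and genes named for context (Eif2ak3). Calls were tested on simulated data with the spread of repeated spots alone, which cannot speak to biological or slide variation. Alternatives were 75th percentile scaling, no background correction, the deposited table, spike-in scaling, the mean over probes, no filter, and the most 3' probe, the last added after seeing the data. With 1 array per group no p-value was computed. Promoters were read from a RefSeq table (GRCm38.p6) and matched by symbol. The SWI/SNF knockdown array was not analysed here.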

Additional observations from a re-analysis of the deposited data

Results flagged for a closer look

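For Atf3 and Xbp1, AZA and CHQ lay on opposite sides of ELA. Atf3 was higher in CHQ than in AZA by 3.10 (log2), with differences from ELA of -0.90 for AZA and 2.20 for CHQ. The AZA difference passed the threshold with 75th percentile scaling (-1.02) and in the deposited table (-1.14). Xbp1 was lower in CHQ than in AZA, with a difference of -1.10, and stood 0.52 above ELA in AZA and -0.58 from it in CHQ. Each value comes from 1 array per group, and the difference was not tested.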

How the results depend on the processing

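Of 27 called member differences, 20 passed the rule under each of 6 alternatives that kept the filter, and 0 changed sign. The other 7 concerned Ddit3 and Chac1 (ELA minus ES), Slc38a2 (AZA), Eif4ebp1 (both drugs), Atf4 (CHQ) and Vldlr, CHQ minus AZA (0.73 as the mean over probes). Among called members only Atf4 and Vldlr had a second probe. The mean over probes and the most 3' probe therefore could not change the other calls. The deposited table also came from background correction and quantile normalisation, so it differed little from the main values. Spike-in scaling moved the median of all tested genes to -0.67 in ELA minus ES, -0.18 in AZA minus ELA, -0.33 in CHQ minus ELA and -0.20 in CHQ minus AZA, and 75th percentile scaling moved it to -0.20 and -0.26 in the treated comparisons.

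With spike-in scaling, ELA minus ES gave medians of -0.93 for amino acid genes, -0.19 for stress regulators and -0.72 for ER chaperones, and 8 members called instead of 4. It gave stress regulators 0.25 in AZA minus ELA. In CHQ minus ELA it gave -0.42, 0.71 and -0.44 for amino acid genes, stress regulators and chaperones, and in CHQ minus AZA -0.39, 0.15 and -0.31. With 75th percentile scaling, AZA minus ELA gave -0.17, 0.19 and -0.15, CHQ minus ELA gave -0.34, 0.85 and -0.42, and chaperones had -0.21 in CHQ minus AZA. As the mean over probes, amino acid genes had -0.36 (AZA minus ELA) and -0.31 (CHQ minus ELA), and stress regulators 0.98 (CHQ minus ELA). Medians near 0 thus took either sign. That of stress regulators in ELA minus ES, 0.51 in the main setting, also changed sign with spike-in scaling. The cause was not tested.

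A slide block could not be fitted for the treated comparisons, since slide and treatment cannot be told apart there. The other comparisons lie within a slide. No paired analysis was possible because each group had 1 array. Dim probes limit the values of Slc7a11.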
